A study of Mus musculus with 48 samples.

Results

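A-to-I editing in the spleen was compared between mice with wild-type ADAR1 and mice whose ADAR1 is made but cannot deaminate adenosine. The 6 libraries were the spleen libraries of the 48 in the series, 3 from Adar1+/+ Ifih1-/- animals (WT) and 3 from Adar1E861A/E861A Ifih1-/- animals (E861A). All were male C57BL/6 mice of 12 weeks, the labels give the 3 of a genotype as independent biological replicates, and both genotypes lack Ifih1, so no group with intact MDA5 was compared. Genotypes are those of the labels and were not checked in the reads. Editing was read by mmPCR-seq, in which many cDNA stretches around catalogued adenosines are amplified together and then sequenced. Inosine appears in the reads as G, so a site's editing level is the percentage of its reads with G. Of 48715 listed positions, 6528 were covered in spleen, by more than 100 reads in 2 or 3 libraries of each genotype, and 284 of these (4.35%, Wilson 95% interval 3.88% to 4.87%) were edited, meaning that the reads of the covered libraries together gave a level above 1% in at least 1 genotype. These 284 sites lay in 116 of the 330 genes with a covered site or outside the deposited genes. Just inside the limit were a site of Wipi2 at 1.00% in WT and 0.426% in E861A and a site of Ankrd28 at 1.01% and 0.537%. Just outside were an intergenic site on chromosome 9 at 0.994% and 0.573% and a site of uc007hbj.1 at 0.998% and 0.641%.

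ADAR1 converts adenosine to inosine in double-stranded RNA, most of it formed by inverted repeats in introns and 3' UTRs. It is active in most tissues, whereas its relative ADAR2 is best known for recoding neuronal transcripts. Edited duplexes are poorly sensed by MDA5, the product of Ifih1, and the lack of MDA5 lets mice without ADAR1 editing reach adulthood. The spleen is a blood-filtering organ made mostly of B and T lymphocytes, with macrophages, dendritic cells, erythroid cells and stroma.

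The following stretches are those on which the comparison turned. Each is 21 bases of the mm9 genome, read 5′ to 3′ on the strand of the transcript, with the edited A in capitals. The first set was edited in all 3 WT spleens and below 2% in every E861A spleen.
Trim12c 3' UTR, chr7:111487810-111487830, minus strand: gtgtattcttAgtgatcactt
Rhoa 3' UTR, chr9:108239451-108239471, plus strand: tttgtgaattAggctgtaact
Nrp1 3' UTR, chr8:131028063-131028083, plus strand: aactggttaaAgtgacagtat
Tox4 3' UTR, chr14:52913894-52913914, plus strand: cctacaacttAggaggcaaga
Nup155 3' UTR, chr15:8109479-8109499, plus strand: acttccaagtActggaaatcc
Fam46c 3' UTR, chr3:100274389-100274409, minus strand: tttcttagttAggtttgaatt
Ppp1r15b 3' UTR, chr1:135034577-135034597, plus strand: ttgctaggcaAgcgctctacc
Ccni coding sequence, chr5:93618600-93618620, minus strand: tcttttggatAggtttttagc
The second set carried G at 1% or more in every library of both genotypes.
Cog3 coding sequence, chr14:76119516-76119536, minus strand: cattaaggaaAtttccctgga
Flna coding sequence, chrX:71472191-71472211, minus strand: tctagtcttcAggtgaggcac
Iqgap1 3' UTR, chr7:87857164-87857184, minus strand: aagaaaaaggAaaaaaaaaag
uc012aji.1 within Tulp4, chr17:6123037-6123057, plus strand: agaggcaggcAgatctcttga
Acot10 coding sequence, chr15:20595379-20595399, minus strand: tggtaacagtAgatgatatca

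Summed coverage, in which a read counts once for each site it spans, was 7978131 to 9466888 in WT and 8082748 to 8896037 in E861A. Between 6421 and 6769 positions per library had more than 100 reads, at a median of 1075 to 1270 reads. Molecular identifiers were not used, so PCR copies count as reads, and intervals and limits cover counting error only. Sites of 1 amplified stretch share reads and are not independent. The third WT spleen stood apart at many loci and is given with and without where a count rests on it. A level pools all cells of the organ, so fewer cells that edit a transcript and less editing per cell cannot be told apart.

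Over all 6090 covered sites read in all 6 libraries, whatever their level, the mean level was 0.358%, 0.411% and 0.331% in the WT libraries and 0.229%, 0.183% and 0.173% in the E861A libraries. The genotypes did not overlap, and the mean changed by -46.8% (exact permutation test, two-sided, p = 0.1, and 20 relabelings allow no smaller p). Over the 260 edited sites read in all 6 libraries, the mean level was 3.44%, 5.02% and 3.65% in the WT libraries and 1.34%, 0.879% and 1.20% in the E861A libraries. The genotypes did not overlap, and the mean went from 4.03% ± 0.861 (SD, n = 3) to 1.14% ± 0.235 (SD, n = 3), a change of -71.8% over sites of which 75% were chosen through WT alone. The median over the same sites did overlap. It was 1.05%, 2.61% and 0.288% in the WT libraries and 0.313%, 0.157% and 0.146% in the E861A libraries (exact permutation p = 0.2). Among the 6090 covered sites, 209 ± 41.8 (SD, n = 3) exceeded 1% in WT and 88.3 ± 24.6 (SD, n = 3) in E861A, without overlap (exact permutation p = 0.1). Above 5% there were 44, 76 and 58 sites in WT and 9, 6 and 10 in E861A (exact permutation p = 0.1).

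Of the 284 edited sites, 235 were above the limit in WT and 71 in E861A, and 22 were above it in both. The 22 shared sites were 9.36% of the WT sites (Wilson 95% interval 6.26% to 13.8%) and 31.0% of the E861A sites (21.4% to 42.5%). Of the 195 sites above the limit in WT alone and read in all 6 libraries, 29 exceeded 1% in all 3 WT libraries, 76 in 2 and 90 in 1. Of the 43 such sites above the limit in E861A alone, 1 exceeded 1% in all 3 E861A libraries, 9 in 2 and 33 in 1. Of the 22 shared sites, 10 exceeded 1% in all 3 WT libraries and 10 in all 3 E861A libraries.

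**Figure D1:**
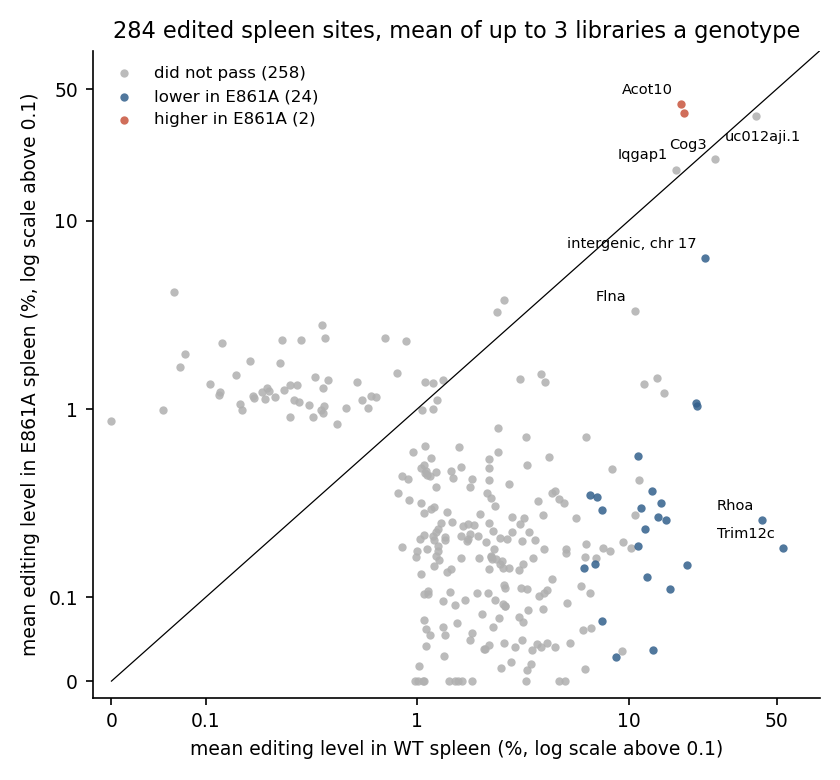
Mean editing level of each of the 284 edited sites in WT spleen (horizontal axis) and E861A spleen (vertical axis), both in percent and logarithmic above 0.1; the line marks equal levels and colour the limma call. The 24 sites called lower lie at the lower right, while uc012aji.1, Cog3 and Iqgap1 lie near the line and the Acot10 sites above it.

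Genotypes were compared at each site with limma on log2((level + 0.01)/(1 − level + 0.01)), where level is a fraction, and log2 changes below are on this ratio scale, on which the offset shrinks changes between low levels. Editing passed the threshold of an adjusted p of 0.05 at 24 of 284 sites as lower in E861A (8.45% of the sites tested) and at 2 as higher (0.704%). With unadjusted p under 0.05 there were 59 lower and 3 higher. Of the 260 sites read in all 6 libraries, 67 had every E861A level below every WT level (25.8%) and 6 had every E861A level above (2.31%), over sites mostly chosen through WT, which largely sets that balance. The criterion in the study's methods, an F test across genotypes at 0.1 together with a gap of 5 percentage points or more, picked 22 lower and 2 higher sites (8.45% of the sites in all), and its 22 lower sites were all among the 24. Without the third WT spleen, and with sites chosen anew, limma called 76 of 285 sites lower, 23 of the 24 among them. Without the third E861A spleen it called 14 of 275, all of them among the 24. On untransformed levels 2 were called lower, and under a quasi-binomial model of the counts 7.

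The 24 lower sites lay in the 3' UTRs or coding sequence of 15 genes, plus 1 site where GENCODE has no gene. At 19 of them no E861A library exceeded 1%. Trim12c, of a family of ubiquitin ligases with antiviral members, had the highest WT level. Its site was edited at 48.3%, 62.1% and 50.4% in the WT libraries and at 0.388%, 0.161% and 0% in the E861A libraries, the last being 0 of 2367 reads, which allows up to 0.127%. The genotypes were far apart, with a log2 change of -6.63 (SE 0.42, limma adjusted p = 5.26e-09). Rhoa, a GTPase that organises actin, was edited at 42.8%, 45.4% and 39.8% in WT and at 0.443%, 0.158% and 0.172% in E861A. Its WT mean was 42.6% ± 2.82 (SD, n = 3), and its log2 change was -5.91 (SE 0.45, limma adjusted p = 4.41e-08).

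Nrp1, a co-receptor for semaphorins and VEGF, carried 14.7%, 15.2% and 17.0% in WT against 0.216%, 0% and 0.118% in E861A (log2 change -4.15, SE 0.62, limma adjusted p = 0.000235). Its 3 WT values lie within a range of a few percentage points, and 0 of 1203 reads in the second E861A library allows up to 0.249%. Tox4, an HMG-box protein, was at 16.5%, 21.2% and 25.1% in WT. In E861A it kept 1.46%, 1.16% and 0.628%, more than the sites above but well below every WT library (log2 change -3.72, SE 0.53, limma adjusted p = 0.000154). Nup155, a structural nucleoporin, went from 14.1%, 7.39% and 17.5% to 0%, 0.0759% and 0.0342% (log2 change -3.88, SE 0.67, limma adjusted p = 0.000686).

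Ppp1r15b, which directs protein phosphatase 1 to the translation factor eIF2, had 3 lower sites within a few bases of each other. The strongest was at 24.3%, 29.2% and 9.96% in WT and 0.445%, 1.59% and 1.08% in E861A (log2 change -3.69, limma adjusted p = 0.00047). Reads were fewest here, at 239 to 449 per library, and the stretch is repeated in the genome, with 197 other exact copies of its 21 bases that carry A and 2 that carry G. Dcp2, the mRNA decapping enzyme, went from 13.8%, 17.4% and 5.46% to 0.297%, 0.0883% and 0% (limma adjusted p = 0.00157). Atl3, a GTPase that shapes the endoplasmic reticulum, was at 6.73%, 19.4% and 8.32% in WT and at most 0.341% in E861A (limma adjusted p = 0.00308). Rbm41, an RNA-binding protein, was at 4.78%, 13.8% and 7.71% in WT and at most 0.0509% in E861A (limma adjusted p = 0.00379).

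Of the 24 sites, 7 are labelled intergenic in the deposited annotation, and GENCODE places 6 of these in 3' UTRs of the same strand. There were 3 in the last exon of Fam46c, a non-canonical poly(A) polymerase active in plasma cells, and 3 in the last exon of Xpnpep3, a mitochondrial aminopeptidase. The Fam46c site shown above was at 17.2%, 15.8% and 9.69% in WT and 0.715%, 0.200% and 0.0320% in E861A (log2 change -3.75, limma adjusted p = 0.000639). Another Fam46c site, at chr3:100272400, was at 27.1%, 24.9% and 4.56% in WT, so the third WT spleen was the lowest at both. At Xpnpep3 the order was the opposite. Its strongest site, at chr15:81285395, was at 3.90%, 15.3% and 25.6% in WT and 0.312%, 0.300% and 0.160% in E861A (limma adjusted p = 0.00308), and its 21 bases have 113 exact copies elsewhere in the genome that carry G at the site.

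The seventh, chr17:39980697, was the one lower site that stayed above 4% in every E861A library. It was at 16.7%, 27.6% and 24.7% in WT and 4.51%, 8.71% and 5.78% in E861A (limma adjusted p = 0.00143). GENCODE has no gene here, the nearest, AY036118, being 4351 bases away.

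Further lower sites were found in Mad2l1, Bri3bp, Jmjd4 and Ccni. Mad2l1, of the spindle checkpoint, had 3, the first at 8.68%, 10.0% and 2.13% in WT and at most 0.322% in E861A (limma adjusted p = 0.0257). Bri3bp was at 0.996%, 10.5% and 11.0% in WT, so that 1 WT library was barely edited (limma adjusted p = 0.0423). Jmjd4 was at 2.05%, 10.3% and 8.99% in WT and at most 0.513% in E861A (limma adjusted p = 0.0423), in a repeat with 11028 exact copies that carry G at the site. Of the 24 sites, 14 passed with each library left out in turn. The other 10, which include the sites of Rbm41, Mad2l1, Bri3bp, Jmjd4 and Ccni, lost the call in at least 1 such fit.

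**Figure D2:**
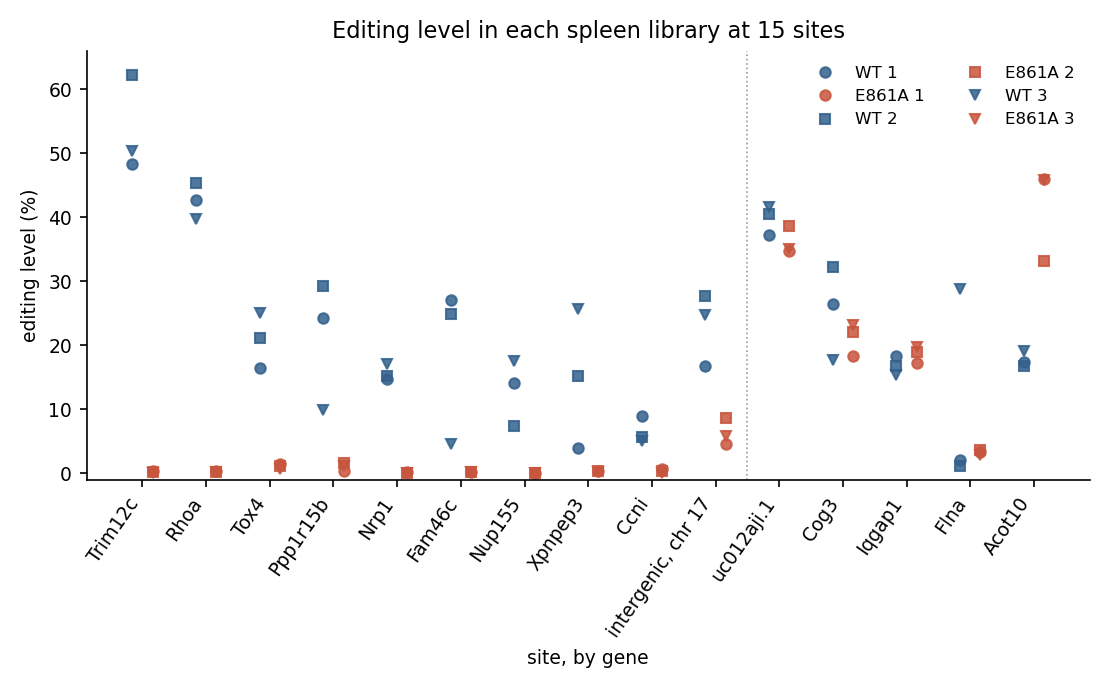
Editing level in percent in each of the 6 spleen libraries (marker shape, replicate; colour, genotype) at 10 sites that were lower in E861A, left of the dotted line, and 5 that were not. Trim12c and Rhoa fell from above 39% in every WT library to below 1%, whereas Cog3, Iqgap1 and uc012aji.1 overlap between genotypes and Flna is high in the third WT library alone.

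Editing at many loci was carried by some WT spleens and not others. Among the 217 sites above the limit in WT and read in all 6 libraries, 39 (18.0%) exceeded 1% in all 3 WT libraries. The first and second WT libraries shared 59 (27.2%), the second and the third 13, and the first and the third 12, while 18, 47 and 29 exceeded 1% in the first, the second or the third library alone. At 82 of the 195 sites above the limit in WT alone, 1 library held more than 80% of the summed level of the 3. At some loci neighbouring sites followed the same libraries. Car5b, a mitochondrial carbonic anhydrase, had 3 sites within 17 bases, at 27.1% to 28.1% in the third WT spleen and at most 2.01% in the other two. Zkscan3, a zinc-finger repressor, had 5 sites at 3.16% to 5.44% in the second WT spleen, at most 1.11% in the first and at most 0.0777% in the third. Mmgt1, a membrane protein, was the reverse case, with 6.09% and 5.25% in the first WT spleen and at most 0.130% in the others. How many cDNA molecules stood behind a level is not known from the reads, and what set these libraries apart at these loci was not tested.

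To weigh loci rather than sites, levels were averaged over the edited sites of each gene. Of the 42 genes with at least 2 edited sites read in all 6 libraries, 36 had a lower mean in E861A, and 9 passed as lower (21.4%) and 1 as higher (2.38%) by limma. The averaged sites were mostly chosen through WT, so the balance of directions is largely set by that choice. Trim12c, Nrp1, Tox4, Ppp1r15b, Atl3, Rbm41 and Jmjd4 passed again as genes, and Dtx3l and Zbtb4 passed only on this average. The gene mean of Trim12c, over 4 sites within 24 bases, was 13.7%, 18.9% and 13.4% in WT and 0.203%, 0.0918% and 0.0839% in E861A (log2 change -4.08, SE 0.25, limma adjusted p = 1.93e-06). Dtx3l, a ubiquitin ligase partner of the interferon-linked PARP9, averaged 3.40%, 4.91% and 3.32% in WT and at most 0.0615% in E861A (log2 change -2.30, SE 0.45, limma adjusted p = 0.00388). Its WT average came from different sites in different mice. The site at chr16:35926988 was at 9.81% in the second WT spleen and 0% in the others, and that at chr16:35927002 at 6.80% and 6.63% in the first and the third and 0% in the second. Zbtb4, a zinc-finger repressor, averaged 3.29%, 3.74% and 1.99% in WT and at most 0.372% in E861A (limma adjusted p = 0.0287). Without the third WT spleen, 22 genes passed as lower.

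Mad2l1 had the most edited sites, 16 within 674 bases of its 3' UTR. Its mean level was 6.92% and 9.28% in the first and second WT spleens and 0.769% in the third, beside 1.11%, 0.152% and 0.0797% in E861A, so the genotypes overlapped and the gene did not pass (limma adjusted p = 0.0601). Rpa1, of the single-stranded DNA binding complex RPA, had 9 sites and a mean of 5.03%, 7.08% and 0.129% in WT. The third WT spleen was again within the E861A range of 0.122% to 0.959% (limma adjusted p = 0.193). Malt1, the paracaspase of antigen receptor signalling, showed the same order with 7.27%, 10.1% and 0.314% over 2 sites, against at most 0.741% in E861A (limma adjusted p = 0.0898). Pfas, of purine synthesis, had 4.31%, 7.82% and 0.192% over 6 sites (limma adjusted p = 0.112), and Ovca2 had 2.95%, 4.18% and 0.116% over 6 (limma adjusted p = 0.342). Mdc1, a scaffold of the DNA damage response, went the other way, at 1.05%, 0.215% and 8.04% (limma adjusted p = 0.341).

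Iqgap1, a scaffold linking small GTPases to the cytoskeleton, had 11 sites, whose mean of 2.78%, 4.20% and 4.34% in WT compares with 1.79%, 1.93% and 1.97% in E861A (limma adjusted p = 0.0857). The remainder in E861A lay mostly in a single site, described below. Ddx19b, an RNA helicase of mRNA export, had 6 sites, 5 of them unread in the first E861A spleen and so kept out of this average. Its strongest, at chr8:113529026, was at 2.37%, 4.45% and 15.9% in WT and 0.284% and 0.0833% in E861A (limma adjusted p = 0.0819). Ncl, which encodes nucleolin, was at 1.43%, 6.11% and 1.17% over 5 sites in WT and at most 0.261% in E861A (limma adjusted p = 0.104). Slc35e1, a solute carrier, was at 1.12%, 3.51% and 1.62% and at most 0.808% (limma adjusted p = 0.181). In Ankrd28 and Qpctl all 3 E861A libraries lay within the WT range and in Mgat4a 1 did, and none of these genes passed. Ankrd28 averaged 2.70%, 0.736% and 0.186% in WT and 1.67%, 0.304% and 0.776% in E861A.

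**Figure D3:**
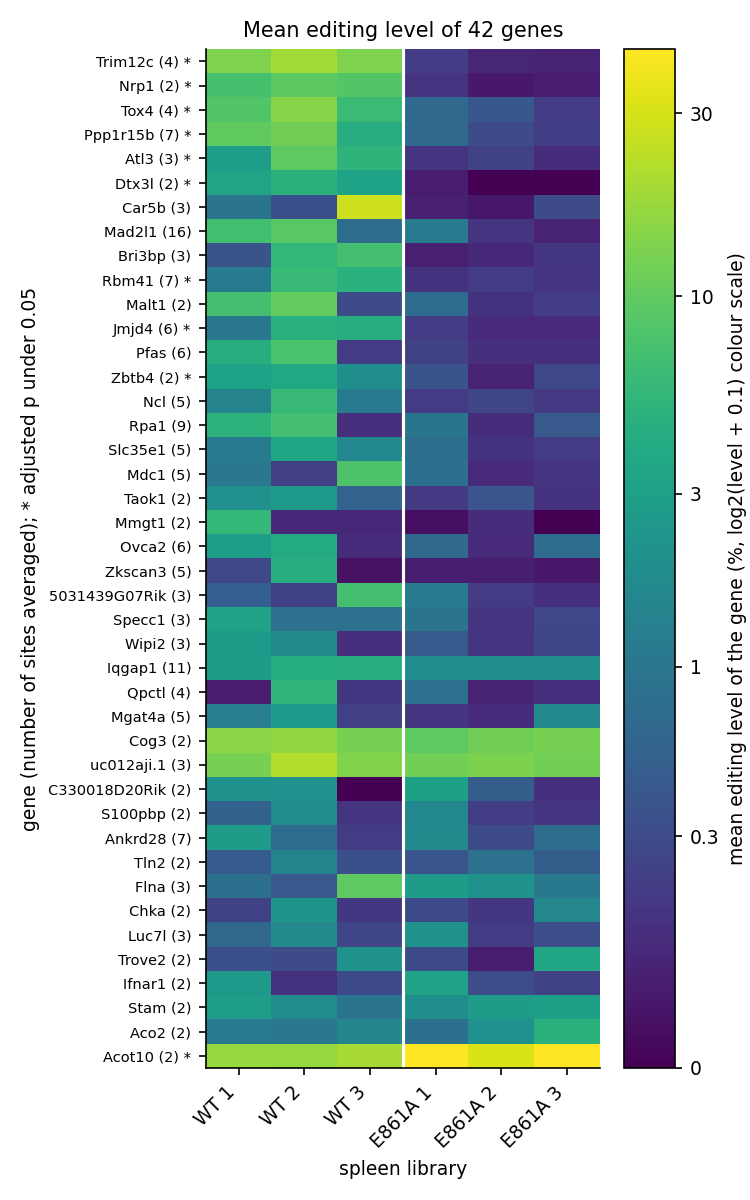
Mean editing level of each of 42 genes (rows, with the number of sites averaged) in the 6 spleen libraries (columns), coloured on a log2(level + 0.1) scale in percent and ordered by the log2 change. The top rows are high in all WT libraries and low in E861A, Car5b and Mdc1 are high in the third WT library, Mad2l1, Malt1, Pfas and Rpa1 are high in the first and second, and Cog3 and uc012aji.1 are alike across genotypes.

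Grouped by function, the counts below stand beside 24 of 284 sites called lower (8.45%) and 116 of 330 covered genes with an edited site (35.2%) over all features. Over all 284 sites the median difference of E861A minus WT was -1.64 percentage points, with 227 sites lower in mean. Since 213 of the 284 were members through WT alone, these values and the like counts of the lists largely restate the choice of sites. Immune and lymphocyte signalling had edited sites in 6 of 12 covered genes, 12 sites in all, of which 1 passed as lower and 9 were lower in mean (median difference -1.68 percentage points). DNA repair, replication and cell cycle had 33 sites in 6 of 11 genes, with 3 passed as lower, all in Mad2l1, 30 lower in mean and a median difference of -2.99 percentage points. RNA processing had 20 sites in 8 of 17 genes, with 2 passed as lower, in Nup155 and Dcp2, and a median of -2.29 percentage points. Cytoskeleton and membrane traffic had 34 sites in 13 of 21 covered genes, with 2 passed as lower, in Rhoa and Atl3. This list held 7 shared sites among its 34, beside 22 among all 284, and its median was -1.27 percentage points. Metabolism had 32 sites in 11 of 18 genes, with none lower and 2 higher past the threshold, both in Acot10, and a median of -1.59 percentage points.

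The assay gives little to check the tissue by. Of 12 lymphoid and myeloid transcripts looked for, 4 had listed positions (Malt1, Il7r, Flt3 and Mpeg1), and all 4 were read in spleen. They were read at 83 sites, of which 3 were edited, beside 4.35% of all covered sites. Of 14 neuronal transcripts 8 were read at 80 sites, and 1 of these was edited, the Cyfip2 Lys->Glu site at 3.26% in the third WT spleen and at most 0.259% in the other 5 libraries. Coverage follows the primers and is no measure of expression.

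By annotation, 16 of the 24 lower sites were in the 3UTR class, which held 207 of the 284 edited sites. Its mean level over the sites read in all 6 libraries was 3.50%, 5.27% and 2.98% in WT and 0.751%, 0.366% and 0.571% in E861A, a change of -85.6% over sites chosen on these levels (exact permutation p = 0.1, adjusted over 6 classes 0.15). Over all 3753 covered sites of the class read in all 6 libraries it was 0.388%, 0.456% and 0.320% in WT and 0.209%, 0.165% and 0.151% in E861A. The intergenic class of 26 sites, 23 of them in GENCODE 3' UTRs, was at 3.66%, 5.71% and 7.54% in WT and 0.779%, 0.502% and 0.468% in E861A, a change of -89.7% over sites likewise chosen (exact permutation p = 0.1). In the intronic class the genotypes overlapped over the edited sites. Its mean over 33 sites was 0.836%, 1.25% and 1.69% in WT and 1.16%, 0.505% and 0.937% in E861A (exact permutation p = 0.4), with none of its 35 sites past the threshold and 14 of them above the limit in E861A alone. Over all 857 covered intronic sites they did not overlap, at 0.233%, 0.243% and 0.248% in WT and 0.218%, 0.157% and 0.166% in E861A. GENCODE places 34 of these 35 edited sites in exons, 21 of them in non-coding transcripts, and 1 in an intron. Its highest WT mean was a site of 5031439G07Rik, at 0.751%, 0.0918% and 11.0% in WT and at most 0.114% in E861A (limma adjusted p = 0.339).

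**Figure D4:**
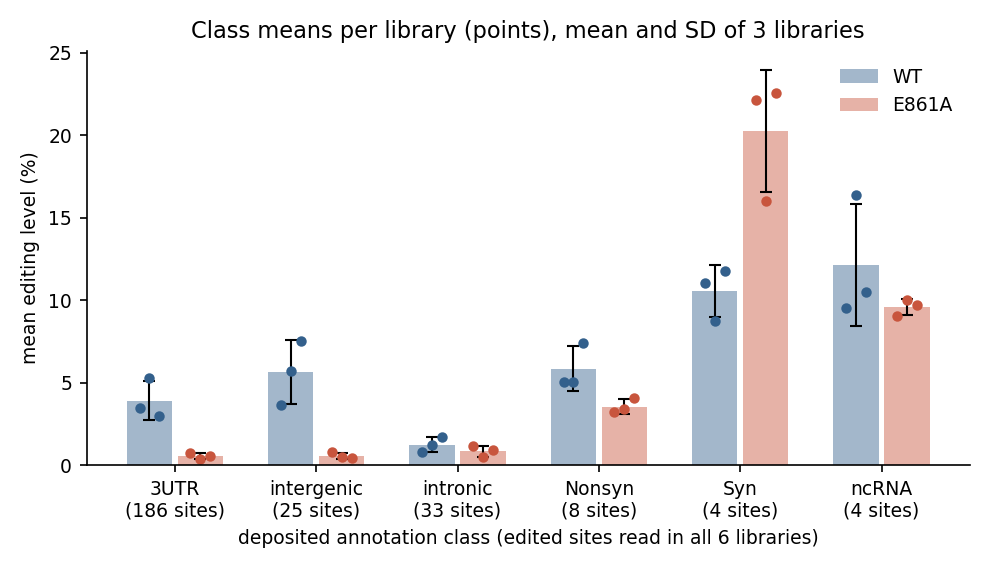
Mean editing level in percent of the edited sites of each deposited annotation class, per library (points) with the mean and SD of 3 libraries a genotype (bars). Over these sites, chosen on these levels, WT and E861A are apart in the 3UTR, intergenic and Nonsyn classes and overlap in the intronic and ncRNA classes, which over all covered sites do not overlap, while the Syn class is higher in E861A through 2 Acot10 sites, a direction that turns when sites are weighted by reads (-2.42 percentage points).

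Recoding sites were mixed. The Nonsyn class held 8 edited of 205 covered sites (3.90%, beside 4.35% over all classes), with a mean of 5.08%, 5.05% and 7.42% in WT and 3.20%, 3.39% and 4.10% in E861A over sites chosen on these levels (exact permutation p = 0.1, adjusted over 6 classes 0.15). Over all covered Nonsyn sites read in all 6 libraries it was 0.423%, 0.430% and 0.494% in WT and 0.327%, 0.286% and 0.320% in E861A. The difference over the 8 sites, -2.29 percentage points, was -3.54 without the third E861A spleen and -3.69 with sites weighted by reads. Ccni, cyclin I, changes Arg->Gly in its exon 3 and was the one recoding site to pass. It was at 9.01%, 5.65% and 5.06% in WT and 0.714%, 0.329% and 0% in E861A (log2 change -2.58, SE 0.69, limma adjusted p = 0.0223). Cog3, a subunit of a Golgi tethering complex, changes Ile->Val in its exon 17 and was at 26.5%, 32.2% and 17.8% in WT and 18.3%, 22.0% and 23.2% in E861A. The genotypes overlapped fully (log2 change -0.31, SE 0.26, limma adjusted p = 0.432). The neighbouring Cog3 position, Glu->Glu, was at 4.15%, 0.334% and 7.10% in WT and 0.977% to 1.96% in E861A. Flna, the actin crosslinker filamin A, changes Gln->Arg in its exon 40. It was at 2.08% and 1.15% in the first and second WT spleens and 28.9% (989 of 3427 reads) in the third, beside 3.38%, 3.61% and 2.93% in E861A (limma adjusted p = 0.59). The other 5 recoding sites, named after their values were seen, were low throughout: Arl6ip4 at 0.837% to 1.24% in WT and 0.333% to 0.567% in E861A, Cyfip2 and Zfp397 at 3.26% and 3.19% in the third WT spleen alone, Copa at most 1.69% and Gprin2 at 4.56% in the third E861A spleen alone.

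Noncoding sites that kept their G level in E861A are described next. The site of uc012aji.1, a non-coding exon of Tulp4, was at 37.2%, 40.5% and 41.5% in WT and 34.7%, 38.7% and 35.0% in E861A (limma adjusted p = 0.295). Its 21 bases have 229 other exact copies in the genome with A and 56 with G at the site. The Iqgap1 site in exon 38 was at 18.3%, 16.8% and 15.4% in WT and 17.2%, 18.9% and 19.7% in E861A (limma adjusted p = 0.575). It lies at the edge of a run of A, as the sequence above shows, and 1 copy with G exists. Stam, an endosomal sorting adaptor, was at 3.72%, 2.80% and 1.19% in WT and 2.71%, 4.53% and 4.22% in E861A (limma adjusted p = 0.547).

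The 2 sites that rose were both synonymous positions of Acot10, a mitochondrial acyl-CoA thioesterase gene of 1 exon on chromosome 15. The Val->Val site was at 17.4%, 16.8% and 19.1% in WT and 46.0%, 33.1% and 45.8% in E861A (log2 change 1.67, SE 0.20, limma adjusted p = 2.29e-05). The Ser->Ser site was at 17.2%, 17.1% and 20.8% in WT and 40.6%, 28.8% and 42.3% in E861A (log2 change 1.35, SE 0.22, limma adjusted p = 0.000443). In each library the levels of the sites were within a few percentage points of each other. The Syn class held 4 edited sites, chosen on these levels, 2 of them these Acot10 sites. Its mean went from 10.5% ± 1.57 to 20.2% ± 3.67 (SD, n = 3; exact permutation p = 0.1, adjusted over 6 classes 0.15). This difference of 9.71 percentage points became -2.42 with sites weighted by their reads. Over the 79 covered Syn sites read in all 6 libraries it was 0.748%, 0.669% and 0.827% in WT and 1.28%, 0.965% and 1.26% in E861A. Each Acot10 site has 1 exact copy of its 21 bases elsewhere, carrying G, in coding exons 13 and 14 of Acot9 on chromosome X. Reads were 409 to 854 per library in WT and 133 to 492 in E861A, and with a minimum of 500 reads neither site could be tested. Without limma's variance trend neither passed. Across the blood-forming organs the Val->Val site had no constant direction. Its mean was 60.1% (n = 2) in WT bone marrow and 10.1% (n = 1) in E861A bone marrow, and 34.4% ± 8.22 (SD, n = 2) in WT thymus and 49.5% ± 22.7 (SD, n = 3) in E861A thymus.

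Over all classes, 1308 of the 6528 covered sites (20.0%) had an exact copy elsewhere that carries G. This held for 74 of the 235 sites above the limit in WT (31.5%), 7 of the 24 lower sites (29.2%), 9 of the 22 shared sites (40.9%) and 8 of the 49 sites of E861A alone (16.3%). The part of reads from such copies in these levels was not tested.

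The 49 sites above the limit in E861A alone were low and mostly rested on 1 mouse. At 26 of the 43 read in all 6 libraries, 1 library held more than 80% of the summed E861A level. Taz, which encodes the cardiolipin-remodelling enzyme tafazzin, was at 12.5% in the third E861A spleen, on 19 edited reads (Wilson 95% interval 8.15% to 18.7%), and at 0% in the other 2. C330018D20Rik was at 6.18%, 0.569% and 0.249% in E861A, and Ifnar1, a chain of the type I interferon receptor, at 6.19%, 0.289% and 0.448%, both highest in the first E861A spleen. Fnbp1 was at 4.45%, 2.72% and 0%. Rpa1, at chr11:75114517, was at 5.03%, 0.0756% and 2.09% in E861A and at most 0.783% in WT (limma adjusted p = 0.413). Among the 43 read in all 6 libraries, Tcp11l1 was the only one above 1% in every E861A library. It was at 2.68%, 3.36% and 2.35% in E861A and 0.522%, 0.257% and 0.290% in WT, without overlap, yet it did not pass (log2 change 1.52, SE 0.68, limma adjusted p = 0.21).

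The bases beside the A were counted in these sets, without a test of a difference. Among the 24 lower sites, T preceded the A at 15 (62.5%, Wilson 95% interval 42.7% to 78.8%) and G followed at 16 (66.7%, 46.7% to 82.0%), as in the Trim12c, Rhoa and Tox4 sequences above. Over all 6528 covered positions the shares were 19.4% and 34.3%. G preceded the A at 2 of the 24 (8.33%) and at 22.5% of covered positions. Among the 235 sites above the limit in WT, T preceded at 32.8% and G at 12.8%. The 49 sites of E861A alone had T before at 20.4% and G before at 32.7%, G being the commonest base there. G followed the A at 39.1% of the 235 WT sites and at 38.8% of the 49, both near the share over covered positions. Edited positions also lay close together. Of the 235 WT sites, 68.9% were within 50 bases of another on the same strand, compared with 12 of the 49 sites of E861A alone (24.5%) and 974 of the 6244 covered positions below the limit (15.6%). These shares are descriptions, since sites of a locus share reads.

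To compare genotypes on sites that no spleen value had chosen, spleen-covered sites edited in WT in at least 1 of the 7 other tissues were taken. Of 1370 such sites, 921 had a lower mean in E861A and 426 a higher mean. Over the 1284 read in all 6 libraries the mean level was 0.934%, 1.15% and 0.803% in WT and 0.406%, 0.309% and 0.340% in E861A, a change of -63.4% (exact permutation p = 0.1). By limma 2 sites passed as lower (0.146%), those of Trim12c and Rhoa, and 0 as higher, and an unadjusted p under 0.05 was reached at 87 lower and 12 higher sites. This count rested on single libraries, since 63 sites passed as lower without the third WT spleen and 0 without the first or the second.

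Sites entered the comparison with bone marrow if edited in either organ. Of 627 sites covered in both and edited in either, the change from WT to E861A was less negative in spleen at 72 (11.5% of those tested by a limma interaction over 12 libraries) and more negative at 0. Of the 72, 18 were edited sites of the spleen and the others entered through bone marrow alone, where their WT level was high. The split of 72 and 0 and the higher WT mean in bone marrow at all 72 are therefore largely set by the choice of sites and are given as a description. The median level at these sites was 22.6% in WT bone marrow and 0.382% in WT spleen, and in E861A it was 0.162% and 0.176%. In 38 of the 72, all 3 WT spleens were at or below 1%, and 0 of the 24 lower spleen sites were among them. Read depth at the 72 sites was similar in spleen (median 1223 to 1579 reads per library), while the second WT bone marrow library had 1861831 in summed coverage and more than 100 reads at 23 of them. Without that library 80 sites passed, without the first WT bone marrow 28 of 238, and without the third 31 of 211.

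The sites with the smallest interaction p all entered through bone marrow, and their levels are a description. The first was chr15:55087127, in uc007vsb.1 and the 3' UTR of the mTOR inhibitor Deptor. It was at 84.7% and 76.6% in the 2 WT bone marrow libraries that read it and at 0.988%, 0.0980% and 0% in the WT spleens (difference of the log2 changes 8.47). A site of Cds2, a phospholipid synthesis enzyme, was at 37.8%, 42.9% and 52.3% in WT bone marrow and at most 0.243% in WT spleen (difference 6.04). A site labelled intergenic, in the 3' UTR of Coro7, was at 22.8%, 21.9% and 21.4% in WT bone marrow and at most 0.416% in WT spleen (difference 4.59). By contrast, Rhoa and Trim12c were alike in both organs, Rhoa at 42.6% ± 2.82 (SD, n = 3) in WT spleen and 42.5% ± 7.29 (SD, n = 3) in WT bone marrow, and Trim12c at 53.6% ± 7.46 (SD, n = 3) and 58.4% ± 14.7 (SD, n = 2). Among the 72 sites, 5 were in Rnf168, a ubiquitin ligase of the DNA damage response, and 4 in Slc35e1.

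**Figure D5:**
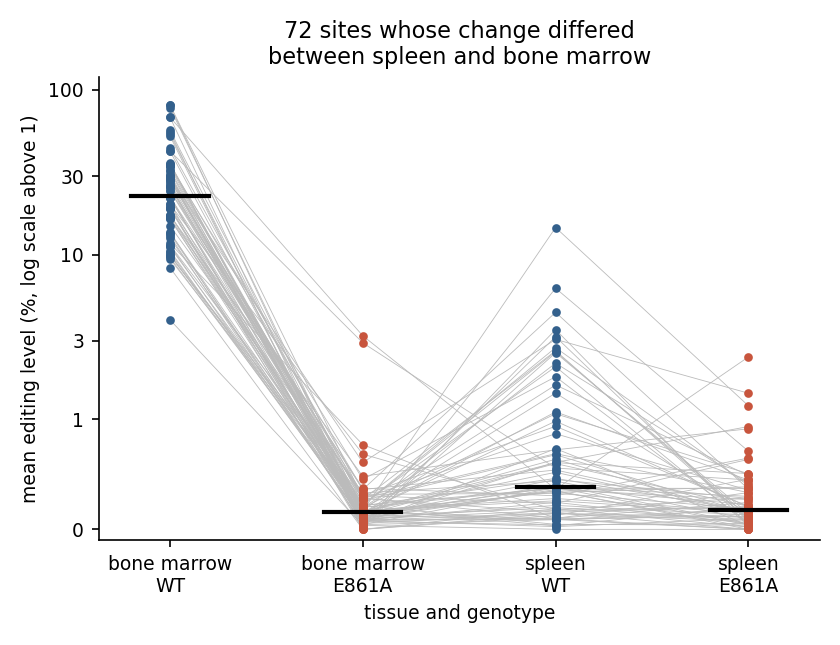
Mean editing level in percent (logarithmic above 1) at the 72 sites whose change differed between spleen and bone marrow, for each tissue and genotype; points are sites, lines join a site and bars are medians. The medians are 22.6% in WT bone marrow and below 1% in the other 3 groups, and all 72 sites are higher in WT bone marrow than in WT spleen.

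Against the thymus, 0 of 633 sites differed in their change by limma (0%), with 29 at an unadjusted p under 0.05 and a smallest adjusted p of 0.579. This count rested on 1 library, since 111 sites passed as less negative in spleen without the third WT thymus. Trim12c was at 37.0% ± 8.67 (SD, n = 3) and Rhoa at 28.1% ± 7.35 (SD, n = 3) in WT thymus and both means were below 1% in E861A thymus. In WT and E861A thymus, Cog3 was at 19.9% ± 2.31 and 18.5% ± 4.67, Iqgap1 at 19.7% ± 1.40 and 19.2% ± 0.919, and uc012aji.1 at 39.4% ± 2.33 and 36.4% ± 1.84 (SD, n = 3), while Stam was at 4.63% ± 2.40 (n = 3) and 2.41% ± 0.468 (n = 3).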

How the data were processed

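The 6 spleen libraries were compared as labelled, with bone marrow and thymus (6 each) for the interaction contrasts. For every library the authors deposited the counts of reads covering and of edited reads at 48715 positions, and their ratio as a fraction, which was recomputed from the counts (largest difference 0.0005). Per the labels' processing notes STAR, SAMtools and mm9 were used, with versions not given in the sources used here. The deposited whole-series matrices of coverage and levels, which hold no edited reads, were not used. Levels at 100 reads or fewer were missing values. Tests used limma 3.58.1 (lmFit, eBayes with a trend) in R 4.3.3 with Benjamini-Hochberg adjustment, tested on simulated data. Single values used two-sided exact permutation tests. Sequences came from NCBIM37 and features from GENCODE vM1, with samtools 1.23.1. A copy is an exact match of the 21 bases elsewhere with A or G at the site. Python 3.11.15, pandas 2.3.3 and scipy 1.17.1 did the rest. Named sites were the 14 largest non-overlapping falls (at most 2 per gene, intergenic counting as a gene), all rises, the 8 highest shared and 6 highest E861A-only sites, the highest WT site of each class, recoding sites above 2%, the sites next to the limit and up to 3 interaction sites. Genes named were the 15 with the most edited sites and those past the gene test. Other sites and genes were described after their values were seen. Members and lists were chosen with earlier results of these data known. Alternatives varied coverage, limit, offset, scale, model and libraries. A gene among the bone marrow contrasts is not reported here.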

Additional observations from a re-analysis of the deposited data

Results flagged for a closer look

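The change from WT to E861A differed between spleen and bone marrow at 72 sites by a limma interaction test. Sites were tested if edited in either organ, and 18 of the 72 were edited in spleen, so the direction is largely set by that choice. The 3 with the smallest p were those in Deptor, where the log2 changes differed by 8.47, in Cds2 (6.04) and in the 3' UTR of Coro7 (4.59), each less negative in spleen and each tested through its level in bone marrow. In E861A all 3 were below 1% in both organs, and what set WT bone marrow apart from WT spleen was not tested.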

How the results depend on the processing

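Alternatives kept the direction of every mean difference except 1. The Syn class, higher by 9.71 percentage points in E861A, was -2.42 with sites weighted by reads and 0.42 with no edited limit. In total 222 alternative values stayed within 1.5 times the reported count or 1 SD of the reported difference and 51 did not, with no other reversal. The count of 24 lower sites became 12 with no edited limit, where 6528 sites were tested, and 48 with an offset of 0.001. It became 2 on untransformed levels, 7 under a quasi-binomial model of the counts and 64 in a fit over all 48 libraries. Of the 24 themselves, 6 kept the call with no edited limit and 21 in the fit over all 48 libraries. The 2 higher sites became 0 with a coverage minimum of 500 reads, 0 without the eBayes trend, 1 with no edited limit, 1 under the quasi-binomial model and 1 over all 48 libraries. An edited limit on the level pooled over all 6 libraries, blind to genotype and chosen after seeing the data, gave 24 and 2. The 9 lower genes became 4 on untransformed levels, and the 1 higher gene 0 at 500 reads. Among sites chosen in other tissues, the 2 lower became 7 and the 0 higher 1 with a WT level above 0.05 there, 1 lower on untransformed levels, and 12 lower and 1 higher without the trend. With an edited limit of 0.05, the sites above it were 57 in WT, 6 in E861A and 6 in both, and differences in percentage points were -9.54 for the mean level (reported as -2.90), -10.8 for the 3UTR class (-3.36), -13.2 for intergenic (-5.05) and -5.98 for Nonsyn (-2.29). With no limit they were -0.171, -0.213, -0.218 and -0.138. Weighting by reads gave -3.69 for Nonsyn and -0.861 for intronic (-0.392), which was -0.983 at 500 reads. Counted above 5% in place of 1%, E861A libraries had 51 fewer sites, a difference of -51 in place of -121. The cause of these changes was not tested.

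Leaving out 1 library at a time, with sites chosen anew each time, gave 14 to 76 lower and 2 to 3 higher sites. It gave 6 to 22 lower genes and 1 higher gene, and 0 to 63 lower and 0 to 2 higher sites among those chosen in other tissues. Against bone marrow it gave 28 to 80 sites less negative and 0 to 7 more negative in spleen, the former 28 of 238 without the first and 31 of 211 without the third WT bone marrow, and against thymus 0 to 111 and 0. Sites above the limit were 199 to 243 in WT, 57 to 86 in E861A and 16 to 24 in both. Mean differences ranged from -3.15 to -2.51 over all sites, -3.74 to -2.96 for 3UTR, -5.75 to -4.57 for intergenic, -3.54 to -1.81 for Nonsyn, 6.19 to 11.8 for Syn, -0.650 to -0.111 for intronic and -3.85 to -0.990 for ncRNA. Where 1 library was left out, the other groups' spread stood in the pooled variance.

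Samples share only a replicate number. Deviations from the group mean correlated at 0.238, 0.0708 and 0.0967 within numbers 1, 2 and 3. With the replicate number as a block, 28 sites were lower and 2 higher, 14 genes lower and 1 higher, 0 sites chosen in other tissues passed, and 72 and 0 differed from bone marrow and thymus. Every sample except the second E861A spleen correlated best with its own number, in part by a narrow margin. The third WT spleen was at 0.0967 with its own number and at 0.0951 with the second E861A spleen. The design gives no pairing, and none is read from these values. With 3 animals a genotype and 100 reads as the minimum, both limit the precision.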
